A study of Mus musculus with 4 samples.

Results

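The genes described here are 10 transcription factors of the outflow tract and the neural crest, Hand2, Tfap2a, Tfap2b, Gata4, Gata6, Tbx2, Tbx3, Tbx20, Isl1 and Sox9, and the question is where PRDM6 peaks lay around them. They are a list of names, drawn up with earlier results of these data known, so the shares set beside them are descriptions. The peaks of each gene are those that the authors' annotation assigned to its symbol, and a gene with no such peak counts as a gene without a peak. Of the 10 genes, 5 had a peak, and together they held 14 of the 13977 peaks of the list.

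PRDM6, an SMC-enriched PR domain protein with zinc fingers, was mapped by ChIP-seq in cultured primary smooth muscle cells (SMCs) of the mouse outflow tract. Per the study's methods, the cells came from the aortic arch and the ductus arteriosus (DA) of late-gestation Prdm6 fl/fl embryos, and no Cre was named for this experiment. All libraries were of cells given FLAG-tagged PRDM6, which a lentivirus delivered, so the peaks are those of a tagged, overexpressed protein and not of the endogenous one. There were 2 PRDM6 ChIP libraries, precipitated with an antibody against the tag, and 2 Input libraries of chromatin that was not precipitated. The study speaks in 1 place of immunoprecipitations from the same sample and elsewhere of independent replicates, so differences between cultures may not be covered.

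The authors matched the peaks of both PRDM6 ChIP libraries into a single list and gave each peak a −log10 p-value in each library, here called first-listed and second-listed after their order, since the list gives no other name. The −log10 p-value of a matched peak is the lower of these values, and a higher value means a stronger peak. The score of a peak encodes its irreproducible discovery rate (IDR), a measure of how well both replicates rank the peak, and a score of 540 or more stands for a global IDR of at most 0.05. The Input libraries entered only through the peak calls, so no Input value can be set beside a peak. Read totals are not part of the peak list. In the first-listed replicate, 58.3% of the peaks had p-values that lay on a background of 2.61 fragments, and their median height was 14 fragments. In the second-listed replicate, 63.5% lay on a background of 2.39 fragments, with a median height of 13 fragments. The other peaks gave no height, and the heights at the genes described here were 11 to 19 fragments where recovered. A peak list holds no expression values, so the SMC identity of the cells cannot be checked against marker genes here.

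The outflow tract is the vessel trunk that joins the developing heart to the great arteries. It is built by cardiac progenitors of the second heart field, which are marked by Isl1, and by cells of the cardiac neural crest, which migrate in from the dorsal neural tube, divide the tract into aorta and pulmonary artery, and form the SMCs of the aortic arch and the DA. AP-2 factors (Tfap2a and Tfap2b) and Sox9 act in neural crest cells, GATA, T-box and HAND factors act in cardiac and vascular cells, and mutations of TFAP2B cause a human syndrome with patent DA.

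The sequences shown are those at the summits of the strongest peak, of the peak nearest to Isl1, and of the promoter peaks that cover the start of Tbx3 and an internal start of Tfap2a. The letters marked in them were not shared by all 14 summits. Each is read from the RefSeq GRCm38 genome (mm10), 5′ to 3′ on the plus strand, and reaches 100 bp to each side of the summit, except that the Tfap2a stretch stops short of the untranslated region of the gene. The strongest peak of all 14, peak 3 of Isl1, is shown at chr13:116003334-116003534, with capitals on its match to a Sox motif (AACAAT or ACAAAG, either strand). The peak nearest to Isl1, peak 5, is shown at chr13:116527240-116527440, with capitals on an AP-1 motif (TGACTCA or TGAGTCA, which are each other's reverse complement). The peak at the start of Tbx3 is shown at chr5:119670352-119670552, with capitals on 2 matches to the palindromic AP-2 motif GCCNNNGGC. The peak at an internal start of Tfap2a is shown at chr13:40730444-40730637, with capitals on a run of GT repeats.
Isl1 peak 3: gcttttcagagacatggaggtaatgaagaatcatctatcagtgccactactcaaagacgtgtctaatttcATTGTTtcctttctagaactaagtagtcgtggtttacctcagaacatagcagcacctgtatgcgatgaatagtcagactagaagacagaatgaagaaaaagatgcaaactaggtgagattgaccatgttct
Isl1 peak 5: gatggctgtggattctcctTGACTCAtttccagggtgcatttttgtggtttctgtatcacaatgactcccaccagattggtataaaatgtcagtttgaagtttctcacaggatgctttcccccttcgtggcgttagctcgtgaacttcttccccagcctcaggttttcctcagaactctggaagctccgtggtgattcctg
Tbx3 peak 1: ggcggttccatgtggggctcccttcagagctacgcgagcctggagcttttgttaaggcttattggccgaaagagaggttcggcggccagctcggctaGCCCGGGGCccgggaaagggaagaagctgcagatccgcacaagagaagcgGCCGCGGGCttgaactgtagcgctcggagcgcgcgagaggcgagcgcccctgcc
Tfap2a peak 2: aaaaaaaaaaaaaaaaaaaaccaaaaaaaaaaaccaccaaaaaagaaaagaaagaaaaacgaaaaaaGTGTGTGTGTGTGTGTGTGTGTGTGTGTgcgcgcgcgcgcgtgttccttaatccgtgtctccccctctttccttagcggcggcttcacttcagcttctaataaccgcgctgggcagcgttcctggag

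Peaks were assigned to 5 of the genes, and they lay at the promoter in 4 of these and far from the gene in the other. Isl1 had 6 peaks, Gata6 had 4, Tfap2a had 2, and Sox9 and Tbx3 had 1 each, whereas Hand2, Tfap2b, Gata4, Tbx2 and Tbx20 had none. The 5 of 10 genes with an assigned peak were 50% (95% Wilson interval 23.7 to 76.3), beside 4314 of the 21911 protein-coding genes, or 19.7%. The intervals cover counting error only, and the list is a single set of peaks, so no test between conditions was possible and values are set side by side. Most of these genes, but neither Gata4 nor Tbx2, lay in wide stretches of genome that held no other protein-coding gene. The distance between the neighbouring protein-coding genes had a median of 0.838 Mb for the 10 genes and 0.0768 Mb for all 21864 protein-coding genes with a neighbour on each side. Of the 3071 protein-coding genes whose neighbours lay at least 0.35 Mb apart, a limit chosen after the values were seen, 47.8% had an assigned peak, beside 5 of the 8 genes described here that lay in such an interval. The share of genes with a peak thus moved with the space around a gene, and its part in the count of 5 was not tested.

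All 14 peaks fell into 2 classes of the annotation. The 8 peaks of Gata6, Tfap2a, Tbx3 and Sox9 were promoter peaks, which the annotation defines as lying within 3 kb of a transcription start site (TSS). The 6 peaks of Isl1 were intergenic and lay more than 100 kb from its TSS. Promoter peaks made up 57.1% of the 14 (interval 32.6 to 78.6) and 21.3% of the list, and peaks over 100 kb from the TSS made up 42.9% of the 14 (interval 21.4 to 67.4) and 19.3% of the list. These intervals treat the 14 peaks as independent, although the 6 distant peaks were all of Isl1 and the 8 promoter peaks were of 4 genes. None of the 14 was in the intronic class of the annotation, which held 35.9% of the list, but that class leaves out peaks counted as promoter peaks. The summits of Gata6 peaks 1, 3 and 4 and of both Tfap2a peaks lay in introns of their own gene. A promoter peak was assigned to 4 of the 10 genes, and to 8.13% of all protein-coding genes.

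None of the 14 peaks reached a global IDR of 0.05, which 3.33% of the list did, and 0 of 14 allows a share of up to 21.5% by its Wilson interval. The best score was 304, a global IDR of 0.186. The lowest score of the list, 48, was held by 5 of the 14 and by 41.4% of all peaks. The median −log10 p-value of the 14 was 6.38, with a range of 3.68 to 9.37, beside a median of 5.53 for the list. In the first-listed replicate the 14 had a median of 6.53 and the list 6.92, and in the second-listed replicate the 14 had a median of 7.92 and the list 6.61. The side on which they fell relative to the list therefore turned with the replicate. The peaks were stronger in the second-listed replicate in 11 of 14 cases, beside 47.9% of the list.

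**Figure D1:**
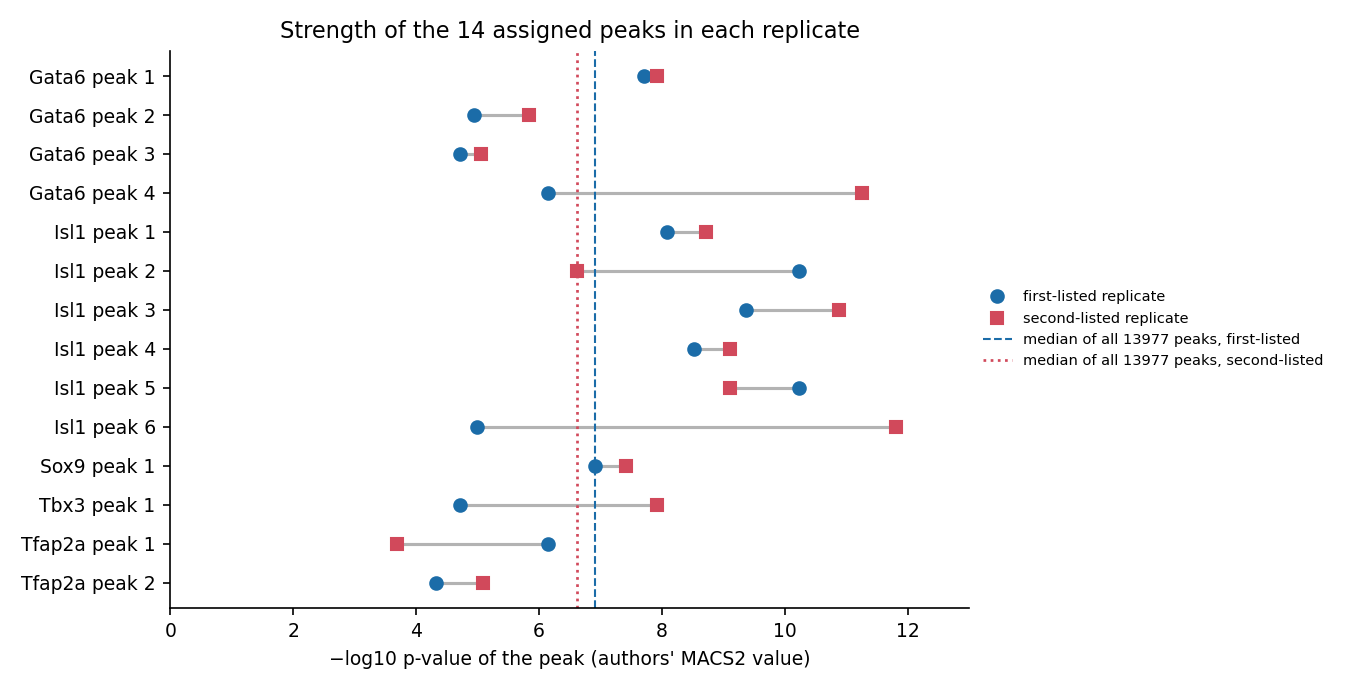
The −log10 p-value (horizontal axis) of each of the 14 peaks in the first-listed replicate (circles) and the second-listed replicate (squares), with vertical lines at the medians of all peaks. The points of Gata6 peak 4 and Isl1 peak 6 lie furthest apart, and the Isl1 peaks reach the highest values of the matched peak.

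The GATA factors differed in their peaks. Gata6, a zinc finger factor needed for the septation of the outflow tract, had 4 peaks in its 5′ part on chr18, and Gata4, its relative in cardiac development, had none. Peak 1 of Gata6 (chr18:11051968-11054448) was 2481 bp wide, the widest of the 14, and covered the TSS with 736 bp of untranslated and 376 bp of coding sequence. Its −log10 p-value was 7.71 in the first-listed and 7.92 in the second-listed replicate, its score was 199, and 81.5% of all peaks were weaker. Both replicates thus gave it nearly the same strength, above the median of all peaks in each. Peak 4 (chr18:11058660-11059435) was next, with 6.15 in the first-listed and 11.26 in the second-listed replicate and a score of 134. Peak 2 had 4.95 and 5.84 and peak 3 had 4.71 and 5.06 in the first- and second-listed replicates, both with the lowest score of the list, and both lay below the median of all peaks in each replicate. Peaks 2 to 4 counted as promoter peaks only through the starts of retained-intron transcripts inside the gene. From the nearest TSS of the basic gene models they lay 3198, 5136 and 6190 bp downstream, and with those models 5 of the 14 peaks were at promoters.

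The peaks at Gata6 went on upstream of the gene, under another name. Gata6os, the transcript on the opposite strand, was assigned 4 further peaks at 0.704 to 16.9 kb upstream of Gata6. The nearest of these (chr18:11050933-11051766) had −log10 p-values of 9.28 and 7.42 and a score of 200. Gata6 peak 1 had 7.71 and 7.92 and a score of 199, so the scores were close and the order of the replicates differed. Together the 8 peaks of both genes spanned 24279 bp (chr18:11035157-11059435), with none at a global IDR of 0.05. Beyond 100 kb, the interval of Gata6 held 4 more peaks, 1 assigned to Mib1 at 209 kb upstream and 3 to Rbbp8 at 533 to 538 kb downstream. Of all protein-coding genes, 83, or 0.379%, had 8 or more peaks within 50 kb of a TSS, and Gata6 was among them. Gata4 had no peak between its neighbouring genes, which stood 0.179 Mb apart, and the nearest peak of the list (chr14:63177745-63177963), 35.6 kb downstream of a TSS of Gata4, was assigned to Fdft1, an enzyme of cholesterol synthesis. That peak had −log10 p-values of 5.69 in the first-listed and 3.71 in the second-listed replicate and the lowest score.

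Isl1 had no peak within 100 kb, and its 6 assigned peaks lay beyond. Its interval held 2 further peaks, at 349 and 519 kb upstream with matched −log10 p-values of 3.71 and 6.92, that were assigned to 4930435F18Rik. Isl1 is a LIM homeodomain factor of second heart field progenitors, and it was the only protein-coding gene in an interval of 1.75 Mb between Itga1 and Parp8. Its peaks lay in 3 places, given here with the distance that the annotation states. Peaks 2, 3 and 4 lay side by side within 1595 bp (chr13:116002445-116004039), separated by 25 and 180 bp, 299312 to 300442 bp on the downstream side. Peaks 5 and 6 lay within 1779 bp (chr13:116526743-116528521) at 217054 and 218308 bp upstream, and peak 1 (chr13:115880193-115881002) stood alone at 422349 bp downstream. None of them overlapped a gene of the basic models.

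The strongest 4 of the 14 peaks were all at Isl1. Peak 3 had −log10 p-values of 9.37 and 10.89 in the first- and second-listed replicates, heights of 17 and 18 fragments and the score of 304, and 91.1% of all peaks were weaker. Peak 5 had 10.23 and 9.10, with 18 and 16 fragments and a score of 297. In both of these, each replicate stood well above its own median over the list. Peak 4 had 8.52 and 9.10, with 16 fragments in each replicate, and peak 1 had 8.08 and 8.72. Peak 2 reached 10.23 in the first-listed but 6.61 in the second-listed replicate, with 18 and 13 fragments. Peak 6 had the widest split of all 14, with 5.00 in the first-listed and 11.81 in the second-listed replicate. The median of the 6 matched values was 8.30, with a range of 5.00 to 9.37, beside 5.56 for all 2692 peaks over 100 kb from their gene. Without Isl1 the other 8 peaks had a median of 4.83, beside 5.42 for all promoter peaks. In the first-listed replicate these medians were 5.55 and 6.15, and in the second-listed replicate 6.63 and 6.61, so the 8 peaks were lower in the former only. The assignment of these peaks to Isl1 rests on nearness alone, and peak lists do not show which gene a distant site acts on.

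Of the T-box factors, which include repressors of the chamber muscle programme, Tbx3 had 1 peak and Tbx2 and Tbx20 had none. The Tbx3 peak (chr5:119670280-119670788) covered the TSS of Tbx3 and part of Tbx3os1 on the opposite strand. Its −log10 p-value was 4.71 in the first-listed and 7.92 in the second-listed replicate, with the lowest score of the list, so that the replicates fell on opposite sides of their medians. Between its neighbouring genes there were 2 further peaks, both assigned to Gm7538 and 498 to 503 kb upstream of Tbx3. The stronger of these (chr5:119167659-119168114) had 10.2 and 15.7 and a score of 467, a global IDR of 0.0741. Tbx2 stood in the narrowest interval, 0.0207 Mb, and the nearest peak, of Brip1, lay 218 kb away (chr11:86050676-86051229) with −log10 p-values of 9.28 and 9.96. Tbx20, a cardiac T-box factor, had its nearest peak 169 kb upstream (chr9:24943298-24943841), with 5.42 and 5.84, and this peak and another were assigned to E130101E03Rik.

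The neural crest factors had promoter peaks at Tfap2a and Sox9 and none at Tfap2b. Tfap2a, an AP-2 factor of the early neural crest, had 2 peaks inside a gene that also overlaps Gm26688. Peak 2 (chr13:40730193-40730878) covered a TSS inside the gene, which has 6 TSSs and its 5′ end at chr13:40738376. Its −log10 p-values were 4.32 and 5.10. Peak 1 (chr13:40729825-40729991) was the narrowest of the 14 at 167 bp, lay 201 bp away, and had 6.15 and 3.68, and 5.57% of all peaks were weaker. Both had the lowest score of the list, and in neither did any replicate reach the median of all its peaks. A further peak 9.362 kb downstream of its nearest TSS of Tfap2a (chr13:40719159-40719582), assigned to Gm26688, had 6.15 and 13.7. Tfap2b, the AP-2 factor linked to the DA, had no assigned peak, and the nearest (chr1:19973973-19974293) lay 762 kb downstream, with 6.92 in the first-listed and 6.61 in the second-listed replicate.

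Sox9, an HMG box factor of neural crest and cartilage, had 1 assigned peak, and it lay wholly inside an exon. The peak (chr11:112782260-112782907) began 36 bp after the TSS and ended 108 bp before the end of exon 1 (chr11:112782224-112783015), and it covered 325 bp of untranslated and 323 bp of coding sequence. Its −log10 p-value was 6.92 in the first-listed and 7.42 in the second-listed replicate, with 14 fragments in each and a score of 151. Both values stood at or above the median of the list in their replicate. Of all peaks, 3.23% lay wholly within an exon, as did 2 of these 14, the other being Gata6 peak 2 in an exon of a retained-intron transcript. A neighbouring peak (chr11:112780957-112782064) ended 0.16 kb upstream of the Sox9 TSS but was assigned to BC006965. It had 6.92 and 8.72 and a score of 167, and with the Sox9 peak it spanned 1951 bp across the start of Sox9. The peak with the best score in any of the 10 intervals (chr11:113100381-113100965) lay 318 kb downstream of Sox9 in an intron of 2610035D17Rik. It had −log10 p-values of 12.1 and 12.8 and a score of 521, a global IDR of 0.055.

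Hand2, a bHLH factor of the right ventricle and of neural crest derivatives, had no assigned peak. The nearest peak (chr8:57360690-57361626) lay 39.7 kb downstream and was assigned to Hdnr, with −log10 p-values of 4.04 and 4.98 and the lowest score. Both replicates were below their medians there.

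Counted by position in place of the annotation's assignment, the intervals of the 10 genes held 38 peaks, of which 14 carried the name of the gene itself. Gata6 had 12, Isl1 had 8, Sox9 had 7, Tfap2a had 4, Tbx3 had 3, Tbx20 had 2, and Hand2 and Tfap2b had 1 each, while Gata4 and Tbx2 had none. Over the 8.65 Mb of the intervals this was 4.39 peaks per Mb, beside 5.31 per Mb over the chromosomes of the list. No interval was computed for this density, so the values are set side by side only. Among the intervals, Gata6 reached 14.7 and Tfap2a 8.03 per Mb. Within 50 kb of a TSS, 6 of the 10 genes had a peak, beside 28.5% of protein-coding genes.

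**Figure D2:**
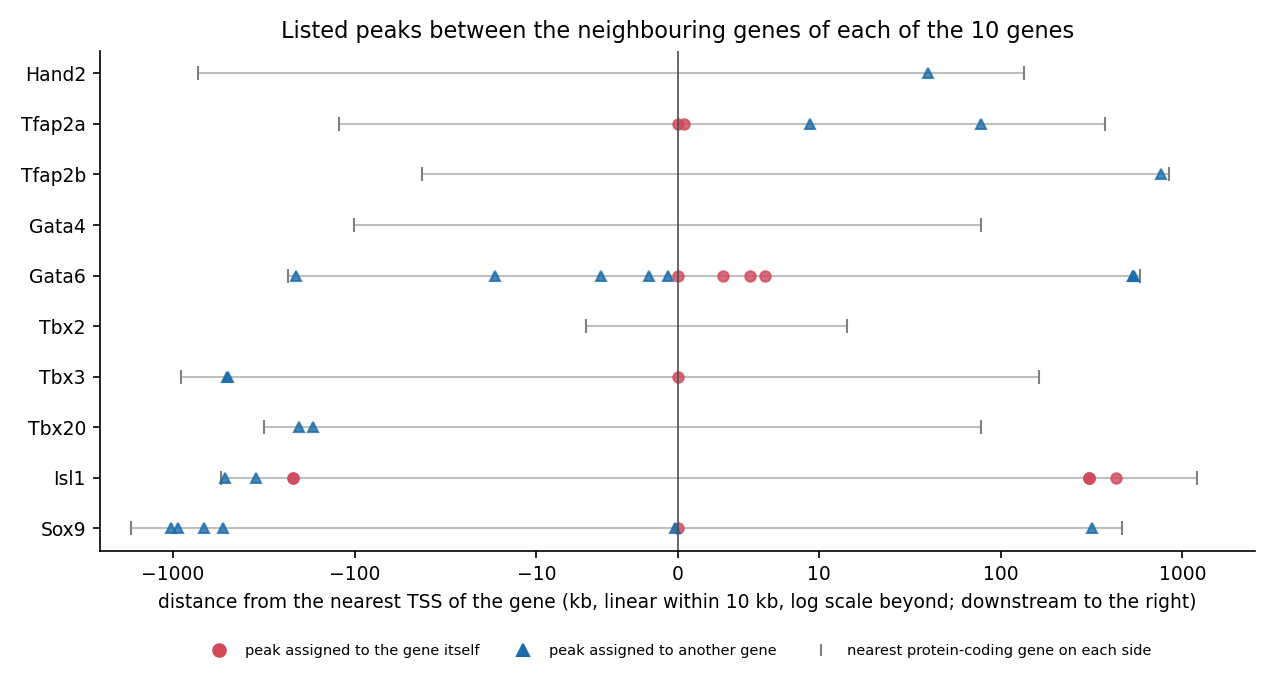
Peaks of the list between the neighbouring protein-coding genes of each of the 10 genes, by distance from the nearest TSS of the basic gene models in kb (linear within 10 kb, log scale beyond, downstream to the right). Circles are peaks assigned to the gene itself and triangles those assigned to another gene. The 8 peaks around the start of Gata6 contrast with the empty 100 kb on each side of Isl1.

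The peaks lay close to each other. Another peak of the list was within 1 kb of 11 of the 14, or 78.6% (interval 52.4 to 92.4), beside 25.9% of all peaks. Peaks of a cluster count each other, so these were not independent cases, which the interval does not cover. With peaks up to 1 kb apart merged, the 14 became 9. The summits of both replicates were a median of 72 bp apart, with a range of 2 to 317 bp, beside 121 bp for the list. The median size of the difference between the replicates was 1.01 on the −log10 scale, and 2.0 for the list. The width of the 14 had a median of 628.5 bp, beside 600.0 bp.

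The promoter peaks and the Isl1 peaks differed in their median base composition, with ranges that overlapped. Within 100 bp of the summit, the promoter peaks had a median GC content of 56.0% and 10.5 CpG sites, where all promoter peaks had 48.8% and 4 sites. The Isl1 peaks had 46.3% and 1.5 sites, where all peaks over 100 kb from their gene had 41.3% and 1 site. The highest GC content was 65.7%, with 20 CpG sites, at the start of Tbx3, and Sox9 had 60.7%. The lowest were peaks 1 and 3 of Isl1, with 38.8% and 39.3%. Among the 14 the peaks of highest GC content were therefore not the strongest.

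**Figure D3:**
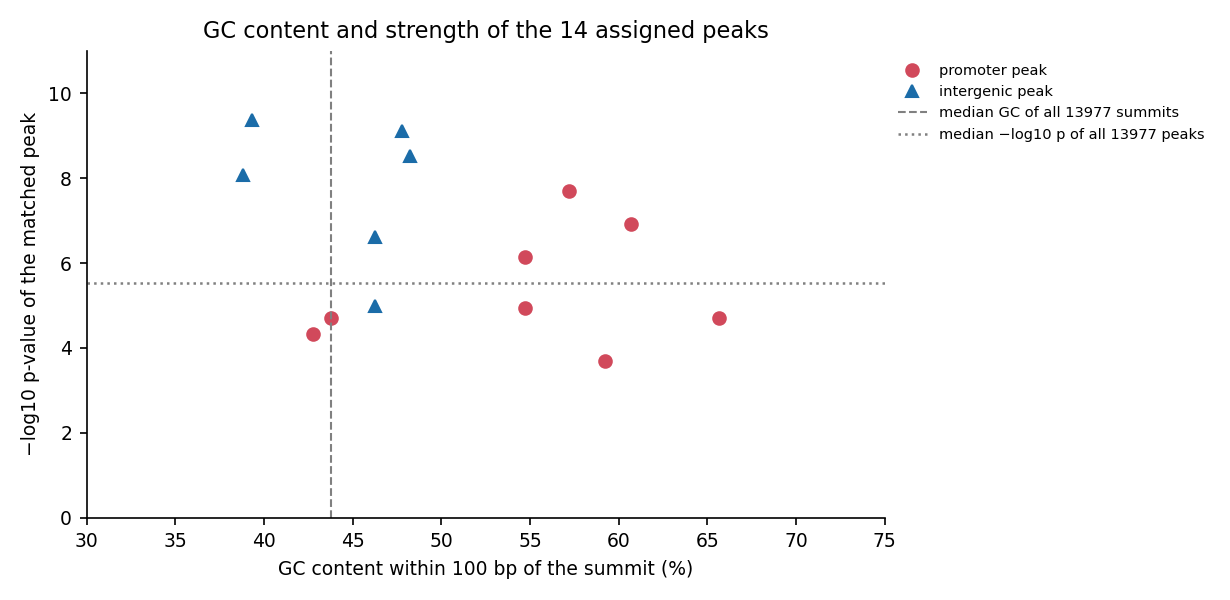
GC content within 100 bp of the summit (horizontal axis, percent) and −log10 p-value of the matched peak (vertical axis) for the 8 promoter peaks (circles) and the 6 intergenic peaks of Isl1 (triangles), with lines at the medians of all peaks. The 4 highest p-values on this scale belong to Isl1 peaks with less than 50% GC.

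Motifs known from SMC and neural crest regulation were looked for on both strands within 100 bp of each summit, and a match means only that the letters are there. AP-1 motifs were at 2 of the 14 summits, 14.3% (interval 4.01 to 39.9), and at 14.3% of all summits. They lay at Isl1 peak 5, centred 78 bp before the summit (chr13:116527259-116527265, capitals above), and at Isl1 peak 4, centred 81 bp after the summit (chr13:116003930-116003936). The TEAD motif GGAATG was at 2 summits, Gata6 peak 3 and Tfap2a peak 1, and at 19% of all summits. Both AP-1 and TEAD were therefore about as common here as in the list, within the error of 14 peaks.

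For each motif of the factor families themselves, the interval of the share at the 14 summits held the share of the list. The Sox motif was at 4 summits, Isl1 peaks 1 and 3 and Gata6 peaks 2 and 3, or 28.6% beside 27.1% of all summits. The AP-2 motif was at 1 summit, that of Tbx3, and at 5.47% of all. Its 2 matches there (chr5:119670449-119670457 and chr5:119670499-119670507) were centred 1 and 51 bp after the summit. The T-box motif AGGTGT was at 1 summit, Gata6 peak 1, and at 7.78% of all. The E-box CATCTG was at the summit of Gata6 peak 2 and at 14.6% of all. Isl1 peak 6 held the Isl1 motif CTAATG, found at 7.57% of all summits. GATA motifs (AGATAA or TGATAA) were at 0 of 14 summits (interval 0 to 21.5%) and 20.1% of all. Simple repeats of 10 or more CA units, read on either strand, were at 2 summits, Isl1 peak 1 and Tfap2a peak 2, and at 3.15% of all.

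A wider list of 43 other factors of the outflow tract and neural crest gives the setting. Of these, 23 had an assigned peak, 53.5% (interval 38.9 to 67.5), so the share was close to that of the 10 genes. They held 131 peaks with a median −log10 p-value of 5.42. The highest counts were those of Meis1 with 19, Sox11 with 13 and Meis2 with 8, where Meis factors are homeodomain partners of other factors and Sox11 is a factor of neural and mesenchymal progenitors, and Foxc1, Mef2c and Tbx18 followed with 7 each. The 2 peaks at a global IDR of 0.05 or less in either list were here. The stronger was at Mef2c, a MADS box factor of muscle (chr13:83603632-83605017), with −log10 p-values of 22.1 and 15.9 and the top score of 1000, in an intron. The other was assigned to Twist1, a bHLH factor of mesenchyme (chr12:34075643-34076996), with 16.9 and 14.7 and a score of 802, 117972 bp from its TSS in an intron of another gene.

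**Figure D4:**
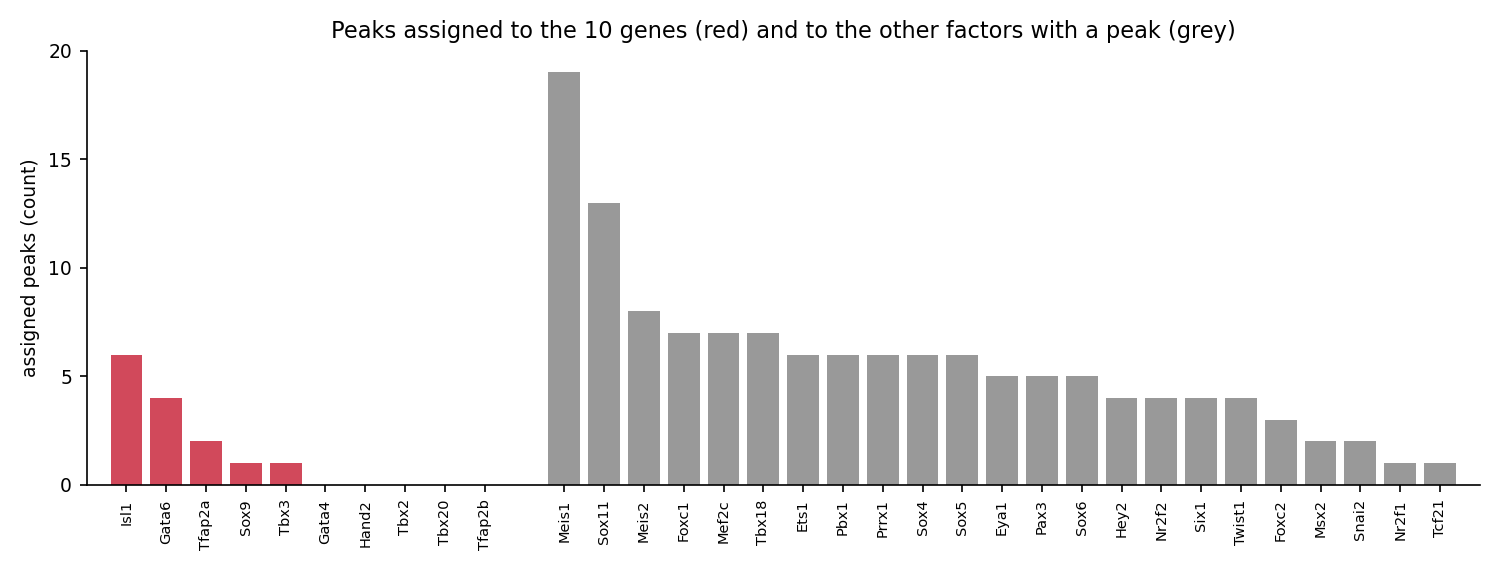
Number of assigned peaks (vertical axis) for each of the 10 genes (red) and each of the 23 other factors with a peak (grey). The counts of the 10 genes run from 0 to 6, and those of the other factors shown from 1 to 19.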

How the data were processed

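The libraries were 2 PRDM6 ChIP and 2 Input samples of mouse outflow tract SMCs, grouped by their titles. Per the study's methods, the authors aligned reads to mm10 with BWA, kept those with a mapping quality of at least 13, and called peaks in each PRDM6 ChIP library against its own Input with MACS2 at a p-value limit of 0.001. The layout of the deposited files shows that they then matched the peaks by IDR and annotated them. Tool versions are not given in the sources used here. The deposited −log10 p-values are those of MACS2, and the deposited score scales the global IDR, with 540 at 0.05 and 830 at 0.01. What the annotation heads a q-value was, in every line, the second-listed replicate's −log10 p-value and was treated so. The columns for signal and q-value in the peak list held a placeholder.

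Peaks were taken by the annotated symbol. Intervals between genes, distances and gene counts used the basic set of GENCODE M21, and exons its full set. Motif letters and GC content were read within 100 bp of the summit from RefSeq GRCm38. Of the 10 genes, 5 matched the RefSeq promoter table, which was used only to check the build. Peak heights were read back from p-values that lay within 0.0002 of a Poisson tail on the background mean. This gave a height for 8144 peaks (58.3%) in the first-listed and 8880 (63.5%) in the second-listed replicate. Shares have 95% Wilson intervals, which cover counting error over peaks only and treat peaks of the same gene or cluster as independent. The methods were tested on simulated data. The tools were pysam 0.24.0, SciPy 1.17.1, pandas 2.3.3, NumPy 2.4.6 and matplotlib 3.10.9 under Python 3.11.15.

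All 10 genes are named. For each, the strongest peak, the peak nearest to the TSS and any at a global IDR of 0.05 are given in full and the rest more briefly. Of the other factors, the 4 with the most peaks, ties included, and those with a peak at a global IDR of 0.05 are named, and other genes only where they took a peak near the 10. The genes, the lists and the motifs were chosen with earlier results of these data known. Alternatives were stricter IDR limits, the stronger part of the list, limits on distance, other promoter definitions, merged peaks, each replicate alone, and other motif windows.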

Additional observations from a re-analysis of the deposited data

How the results depend on the processing

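Of 52 alternatives, 23 left a count within 1.5 times its value or a median within the spread between replicates, and 29 did not. At a global IDR limit of 0.05 the genes with a peak, the peaks, the promoter peaks, the peaks over 100 kb away and the AP-1 and TEAD matches of the 10 genes became 0, and the other factors with a peak became 2. At a limit of 0.01 the genes with a peak and the peaks were also 0. With the stronger part of the list only, which is the 7019 peaks at or above the median −log10 p-value, 3 genes kept 8 peaks, 3 at promoters, and no TEAD match. The 14 peaks became 8 with a limit of 100 kb or of 10 kb to the gene, 9 once peaks up to 1 kb apart were merged, and 29 when each peak went to the nearest protein-coding TSS. Under that last setting the genes with a peak were 7 in place of 5. Promoter peaks were 4 when only those overlapping a TSS counted, and 5 with the basic gene models, an alternative chosen after the data were seen. The median −log10 p-value was 7.92 in the second-listed replicate and 4.83 without Isl1. AP-1 was at 0 of 14 within 50 bp of the summit (7.61% of all peaks), 4 within 200 bp (26.2%), 5 in the whole peak (34.3%) and 1 at summits of the second-listed replicate (12.3%). TEAD was at 5 in the whole peak (44.6%) and 1 at summits of the second-listed replicate (18.3%). In place of the 38 peaks between neighbouring genes, 17 peaks lay within 100 kb of a TSS of the 10 genes and 16 within 50 kb, which also takes in a peak beyond a neighbour of Gata4.

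The list rests on 2 libraries, the peaks of the 10 genes had few fragments where heights were recovered, and peaks unmatched between them are not in it, so a gene without a peak is a gene to which no matched peak was assigned. No paired analysis was possible because no result compares the PRDM6 ChIP group with the Input group, of which the list holds no value.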
